A study of Mus musculus with 10 samples.

Results

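The genes described here are 31 genes of cholesterol and fatty acid synthesis, of the SREBP system that controls them and of sterol transport, taken as a list of genes by name, with no value in the rule, although earlier results of these data were known when it was drawn up. Each gene was read through the brightest of the probe sets whose annotation names that gene alone, which gave a value for 30 of the 31, among 18193 genes tested in the same way. Acat2 has no such probe set in the annotation used and has no value. The arrays came from the cortex of 5 Crtc1-/- mice, which lack the CREB coactivator Crtc1 in every tissue, and 5 WT littermates. All 10 were untreated C57BL/6N females aged 2 months on standard chow, with 1 GeneChip Mouse Genome array (Affymetrix) per mouse. Replicate numbers name the mice and do not pair them across genotypes.

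The brain makes its own cholesterol, because plasma lipoproteins do not cross the blood-brain barrier. Astrocytes and myelinating oligodendrocytes carry most of this synthesis in the adult brain, and neurons take up sterol from lipoproteins that astrocytes release. When membrane sterol is low, SCAP escorts the SREBP transcription factors out of the endoplasmic reticulum, and the SREBPs then raise transcription of the sterol and fatty acid enzymes, while INSIG proteins hold SCAP back when sterol is plentiful. Myelin is the most lipid-rich membrane of the brain, so the members were set beside a list of myelin genes.

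Crtc1 was low on every Crtc1-/- array, with log2 values of 6.28, 6.58, 6.47, 5.96 and 6.60, against 9.86, 9.84, 9.64, 9.51 and 9.62 in WT mice. Its log2 fold change was −3.32 (standard error 0.12). All log2 fold changes are Crtc1-/- minus WT from limma, with p-values adjusted over the 18193 genes and a threshold of 0.05. Across all genes the median was −0.00, and the middle of the distribution, between the 5th and 95th percentiles, ran from −0.15 to 0.15.

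No member of the list passed the test in either direction. None of the 30 measured members was called higher, where 0.308% of all genes were, and none was called lower, where 0.456% of all genes were. At an unadjusted p under 0.05, limma placed 4 members lower (13.3% of the 30; 5.53% of all genes) and 0 higher (4.33% of all genes). No member had genotypes without overlap, which 3.14% of all genes had. The median log2 fold change of the members was −0.04, with 21 of 30 below 0 (70%; 51.6% of all genes). Single values lay between −0.16 (Fdps) and 0.14 (Abca1). The 95% intervals of 28 of the 30 lay within 0.3 log2 units of no difference. Over all members these intervals reached from 81.7% of the WT level, the lower bound of Fdps, to 130.7%, the upper bound of Sc5d, so that larger changes than these lay outside every member's interval.

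**Figure D1:**
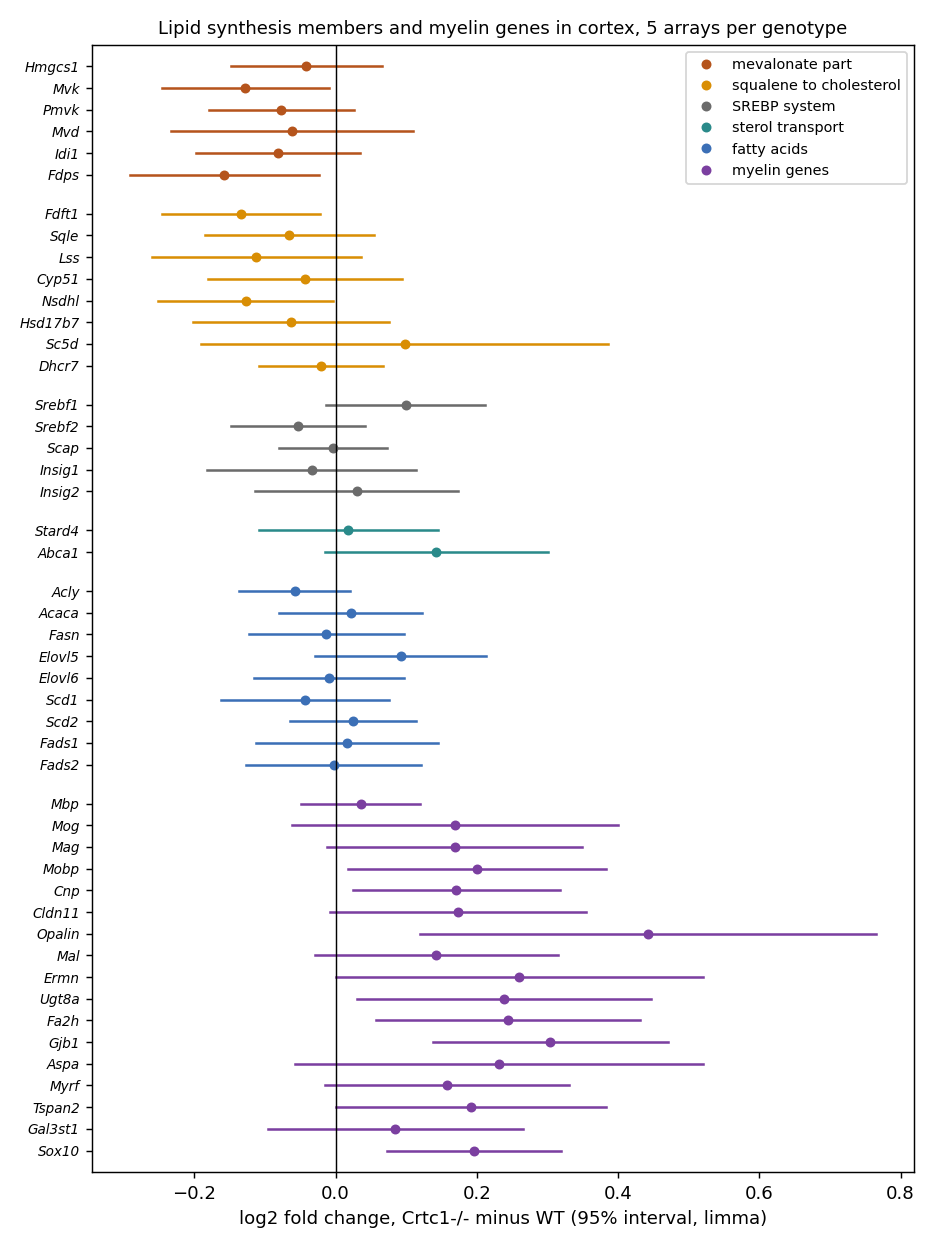
Log2 fold change (Crtc1-/- minus WT, horizontal axis) of each measured member and of 17 myelin genes, with limma's 95% interval as a line, n = 5 mice per genotype, grouped by role. The sterol synthesis genes lie left of 0 except Sc5d, the fatty acid genes lie on both sides of 0, and all 17 myelin genes lie right of 0.

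The members were also read by role. The enzymes of cholesterol synthesis lay mostly below 0, with 13 of 14 negative (92.9%, against 51.6% of all genes) and a median of −0.07. When every probe set of a gene was averaged, 11 of the 14 were negative. The 9 fatty acid enzymes lay on both sides, with 5 negative and a median of −0.00. The 5 genes of the SREBP system had 3 negative values and a median of −0.00, and both sterol transport genes lay above 0. The difference between these groups was not tested.

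The mevalonate part of the pathway turns acetyl-CoA into farnesyl diphosphate, and all 6 of its measured enzymes lay below 0 without passing the test. Farnesyl diphosphate synthase, Fdps, makes the last intermediate that the sterol, dolichol and protein prenylation branches share, and had the largest difference of all members. Its log2 values were 9.24, 9.21, 9.10, 9.13 and 9.13 in Crtc1-/- mice, against 9.30, 9.39, 9.15, 9.49 and 9.27 in WT mice. WT replicate 3 lay inside the Crtc1-/- range, and the other 4 WT mice lay above every Crtc1-/- mouse. The means were 9.16 ± 0.06 in Crtc1-/- mice, against 9.32 ± 0.13 in WT mice (SD, n = 5 each), a log2 fold change of −0.16 (adjusted p = 0.4002, standard error 0.06), or 89.7% of WT.

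Mevalonate kinase, Mvk, which adds the first phosphate to mevalonate, showed a similar arrangement. It read 7.16, 7.24, 7.17, 7.25 and 7.07 in Crtc1-/- mice, against 7.37, 7.35, 7.38, 7.29 and 7.16 in WT mice. Here WT replicate 5 lay within the Crtc1-/- range and the remaining WT mice lay above it. The log2 fold change was −0.13 (adjusted p = 0.449, standard error 0.05), or 91.5% of WT.

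The other enzymes of this part differed less. Hmgcs1, which condenses acetyl-CoA units into HMG-CoA, had means of 11.77 ± 0.08 in Crtc1-/- mice, against 11.81 ± 0.06 in WT mice (SD, n = 5 each), with a 95% interval of the difference from −0.15 to 0.07. Idi1, which isomerizes isopentenyl diphosphate, had a log2 fold change of −0.08, as had Pmvk, the kinase after Mvk, and Mvd, the decarboxylase after Pmvk, had −0.06. All 3 overlapped between genotypes, and their intervals included 0.

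From squalene onwards, 7 of 8 enzymes lay below 0. Squalene synthase, Fdft1, which commits farnesyl diphosphate to sterols, had the lowest adjusted p of all members. Its values were 10.15, 10.19, 10.01, 10.17 and 10.09 in Crtc1-/- mice, against 10.19, 10.31, 10.19, 10.36 and 10.22 in WT mice. The genotypes met only at 10.19, in Crtc1-/- replicate 2 and WT replicates 1 and 3. The log2 fold change was −0.13 (adjusted p = 0.391, standard error 0.05), or 91.1% of WT. This probe set is of a type that can bind related transcripts, and the 2 Fdft1 probe sets without that property disagreed in sign. The brighter had means of 9.73 in Crtc1-/- mice and 9.88 in WT mice, at −0.16 (standard error 0.06). The other was dim, with means of 4.64 in Crtc1-/- mice and 4.46 in WT mice, at 0.18 (standard error 0.10). When every probe set of a gene was averaged, Fdft1 was at −0.03 and Fdps at −0.06. Such averages count dim probe sets equally, among them a second Fdps probe set with means of 2.72 in Crtc1-/- mice and 2.67 in WT mice.

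Nsdhl, a dehydrogenase that takes part in removing methyl groups from the sterol ring, read 8.30, 8.34, 8.22, 8.26 and 8.22 in Crtc1-/- mice, against 8.55, 8.44, 8.27, 8.40 and 8.29 in WT mice. WT replicates 3 and 5 lay among the Crtc1-/- mice. Its log2 fold change was −0.13 (adjusted p = 0.490, standard error 0.06). Lanosterol synthase, Lss, which closes the sterol rings, read 7.80, 7.59, 7.55, 7.67 and 7.60 in Crtc1-/- mice, against 7.82, 7.88, 7.82, 7.68 and 7.57 in WT mice. Crtc1-/- replicate 1 was above WT replicates 4 and 5, and WT replicate 5 was lower than 4 of the 5 Crtc1-/- mice. The log2 fold change of Lss was −0.11 (adjusted p = 0.670, standard error 0.07).

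Among the remaining enzymes, the log2 fold change was −0.07 for Sqle, the squalene epoxidase, −0.06 for Hsd17b7, a sterol ketoreductase, −0.04 for Cyp51, the lanosterol demethylase, and −0.02 for Dhcr7, which reduces dehydrocholesterol to cholesterol. Hsd17b7 was at 0.13 when probe sets that can bind related transcripts were left out. Dhcr7 was the steadiest of these, at 8.48 ± 0.01 in Crtc1-/- mice, against 8.50 ± 0.06 in WT mice (SD, n = 5 each), with a 95% interval from −0.11 to 0.07. Sc5d, the lathosterol desaturase, was the exception in direction and in spread. Its values were 9.29, 9.13, 9.09, 8.77 and 8.76 in Crtc1-/- mice, against 8.64, 9.13, 9.20, 8.88 and 8.71 in WT mice, so that both genotypes held high and low mice. The log2 fold change was 0.10 (standard error 0.13), and the next brightest Sc5d probe set had −0.14 (standard error 0.08).

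**Figure D2:**
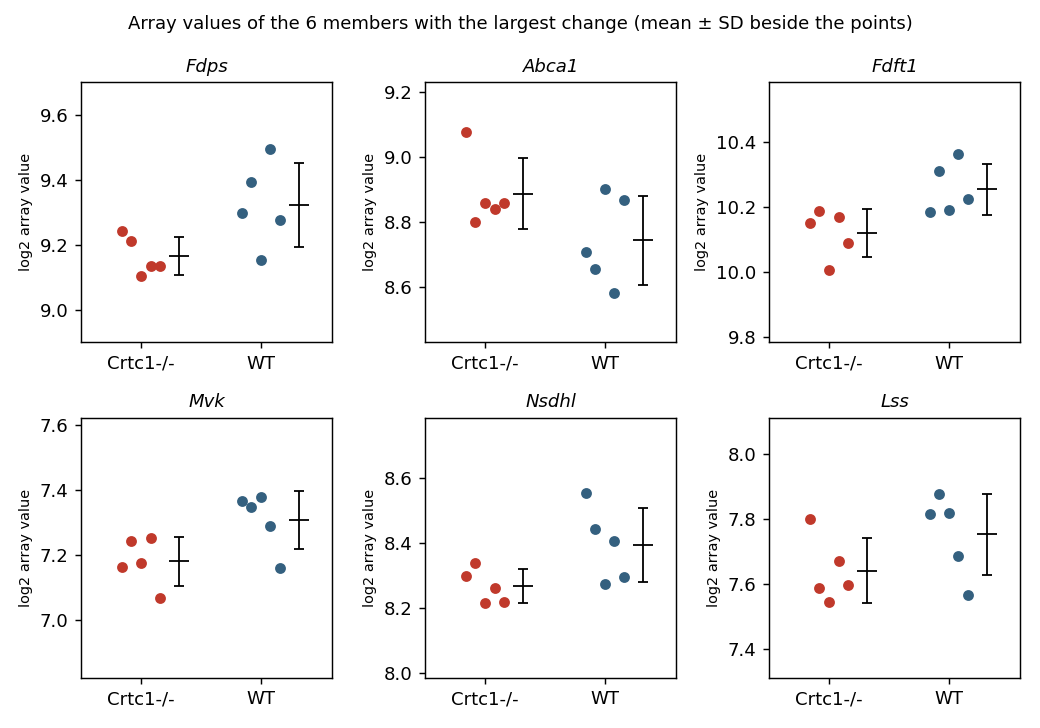
Log2 array values (vertical axes, each spanning 0.8 log2 units) of the 6 members with the largest difference in either direction, Crtc1-/- mice in red and WT mice in blue, with the mean ± SD beside the points (n = 5 each). The genotypes overlap in every panel, and the largest mean difference is 0.16 log2 units, for Fdps.

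The genes of the SREBP system had small differences and none passed the test. Srebf2, which encodes the SREBP that acts mainly on sterol enzymes, had means of 8.86 ± 0.08 in Crtc1-/- mice, against 8.91 ± 0.01 in WT mice (SD, n = 5 each), with a log2 fold change of −0.05. Srebf1, whose product acts mainly on fatty acid enzymes, had means of 8.28 ± 0.04 in Crtc1-/- mice, against 8.18 ± 0.10 in WT mice, with a log2 fold change of 0.10 (adjusted p = 0.586, standard error 0.05). WT replicates 3 and 5 reached the Crtc1-/- range of Srebf1, and the other WT mice lay below it. Scap, the escort protein, was at −0.00 with a 95% interval from −0.08 to 0.07, the narrowest of all members. Insig1, itself a target of SREBP, was at −0.03, and Insig2 was at 0.03.

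Of the transport genes, Abca1 encodes the transporter that loads cholesterol onto lipoproteins and is induced by oxysterols through liver X receptors. Abca1 read 9.08, 8.80, 8.86, 8.84 and 8.86 in Crtc1-/- mice, against 8.71, 8.65, 8.90, 8.58 and 8.87 in WT mice. Crtc1-/- replicate 1 stood above all other arrays, while WT replicates 3 and 5 were as high as the other 4 Crtc1-/- mice and the remaining WT mice lay below every Crtc1-/- mouse. The log2 fold change was 0.14 (adjusted p = 0.568, standard error 0.07), and 0.10 without Crtc1-/- replicate 1. Stard4, a soluble sterol carrier, was at 0.02, with a 95% interval from −0.11 to 0.14.

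The fatty acid enzymes lay close to 0. Acly, which makes cytosolic acetyl-CoA from citrate and feeds both pathways, read 10.48, 10.47, 10.48, 10.47 and 10.50 in Crtc1-/- mice, against 10.59, 10.52, 10.48, 10.56 and 10.55 in WT mice. The 5 Crtc1-/- mice lay close together, and WT replicate 3 was the one WT mouse among them. Its log2 fold change was −0.06 (adjusted p = 0.686, standard error 0.04). Acaca, which makes malonyl-CoA, was at 0.02, and Fasn, the fatty acid synthase, was at −0.01 with a 95% interval from −0.12 to 0.10. Of the elongases, Elovl5, which extends polyunsaturated fatty acids, was at 0.09 (adjusted p = 0.669, standard error 0.06), and Elovl6, which extends saturated ones, was at −0.01. The desaturases lay between −0.04 and 0.02, namely Scd1 at −0.04, Scd2 at 0.02, Fads1 at 0.02 and Fads2 at −0.00.

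A gene can be read by several probe sets, and 23 of the 30 members had at least 2. Over the 73 probe sets that name a single member, 0 passed the threshold of 0.05 in limma over all probe sets. At an unadjusted p under 0.05, 4 were lower, 1 each of Mvk and Fdps and 2 of Fdft1, and 0 were higher. In 12 of the 23 members all probe sets had the same sign. Of the 34 sterol synthesis probe sets 23 lay below 0, a smaller share than among the brightest ones. The 34 include dim probe sets of both signs, such as those of Fdps (Crtc1-/- mean 2.72, at 0.05) and Lss (Crtc1-/- mean 3.92, at −0.04). A dimmer probe set of Scd2 read 10.5 in WT replicate 3, against 6.19 to 6.67 in Crtc1-/- mice and 5.79 to 6.48 in the other WT mice, while the brightest Scd2 probe set read 12.7 in that mouse and 12.6 to 12.7 in all others.

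The promoters of the members are shown because their known regulators bind short motifs there, and because CRTC1 acts with CREB at cAMP response elements. Promoters of 300 bases (250 before and 50 after the transcription start, RefSeq, GRCm38.p6) were in the table used for 24 of the 31 members and for 27025 genes in all. The members without one were Fads1, Fdft1, Fdps, Scd1, Scd2, Sqle and Stard4. Motifs were sought on both strands, and a match says only that the letters are present. The CCAAT box (CCAAT), the binding motif of NF-Y, a frequent partner of SREBP, was in 18 of 24 member promoters (75.0%), against 41.1% of all genes with a promoter in the table. The members without it were Acat2, Scap, Abca1, Acaca, Elovl6 and Fads2. One classical form of the sterol regulatory element (TCACNCCAC) was in 1 of 24, that of Hmgcs1, and in 1.44% of all genes. The full cAMP response element (TGACGTCA) was in 1 of 24, that of Elovl5, and in 2.03% of all genes. Its half-site TGACG, which the full element contains, was in 9 of 24 (37.5%), against 23.0% of all genes. Each window below carries its motif in capitals, written 5′ to 3′ on the strand of the gene. ATTGG is CCAAT read from the opposite strand.
Hmgcs1, sterol regulatory element, chr13:119690189-119690247, plus strand: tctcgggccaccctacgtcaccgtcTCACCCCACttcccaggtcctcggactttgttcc
Mvk, CCAAT box, chr5:114444237-114444277, plus strand: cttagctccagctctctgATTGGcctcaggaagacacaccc
Nsdhl, CCAAT box, chrX:72918483-72918523, plus strand: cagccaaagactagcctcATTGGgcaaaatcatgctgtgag
Lss, CCAAT box, chr10:76531525-76531565, plus strand: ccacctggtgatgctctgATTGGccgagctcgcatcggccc
Elovl5, cAMP response element, chr9:77917359-77917384, plus strand: gcgccattgTGACGTCAcggtcagcc

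The Mvk, Nsdhl and Lss windows are those of the members with the largest differences for which a promoter was held, and Abca1 had no CCAAT box. Elovl5, with the full cAMP response element just after its start, was at 0.09 and did not pass the test, and Hmgcs1, with the sterol regulatory element, was at −0.04.

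Single mice were often the highest or the lowest of their genotype across the sterol enzymes. In Crtc1-/- mice, replicate 1 was the highest of its genotype in 9 of the 14 measured sterol synthesis genes and the lowest in 0, while replicate 3 was the lowest in 7 and replicate 5 in 5. Within WT mice, replicate 1 was the highest in 5 and the lowest in 2, replicate 2 was the highest in 4 and the lowest in 0, and replicate 4 was the highest in 3 and the lowest in 0. WT replicate 3 was the lowest in 7 and the highest in 2, and WT replicate 5 was the lowest in 5 and the highest in 0. The mean over the 14 genes was 8.81, 8.76, 8.68, 8.73 and 8.65 in Crtc1-/- mice, against 8.83, 8.88, 8.76, 8.82 and 8.71 in WT mice. These means overlapped between genotypes, at 8.73 ± 0.06 in Crtc1-/- mice, against 8.80 ± 0.07 in WT mice (SD, n = 5 each).

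The number of members with an unadjusted p under 0.05 depended on single mice. The 4 lower members were Fdps, Fdft1, Mvk and Nsdhl. Their number was 0 without Crtc1-/- replicate 3 or without WT replicate 2, 1 without Crtc1-/- replicate 5 or WT replicate 4, and 2 without Crtc1-/- replicate 4 or WT replicate 1.

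**Figure D3:**
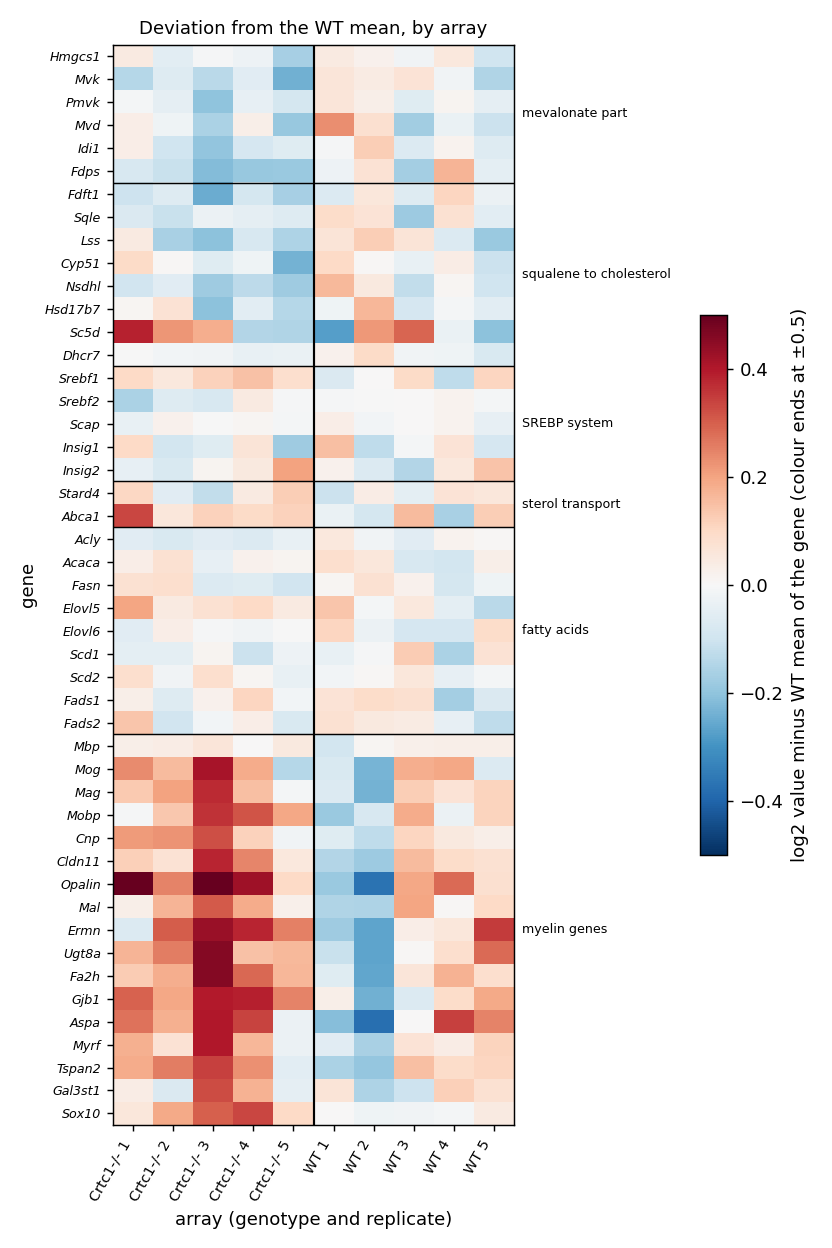
Log2 value minus the WT mean of the gene (colour, red higher and blue lower), for each member and myelin gene (rows, by role) on each array (columns, Crtc1-/- mice left and WT mice right). Crtc1-/- replicate 3 is blue in most sterol enzymes and the reddest array in the myelin genes, and WT replicate 2 shows the reverse.

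The myelin genes lay in the opposite direction from the sterol enzymes. All 17 of the 20 listed myelin genes that were measured lay above 0, with a median of 0.19, and 0 passed the limma test, although 9 had an unadjusted p under 0.05 (52.9%; 4.33% of all genes were higher at that p). Gjb1, a gap junction gene of oligodendrocytes, had means of 6.56 ± 0.09 in Crtc1-/- mice, against 6.26 ± 0.16 in WT mice (SD, n = 5 each) and a log2 fold change of 0.30 (adjusted p = 0.126). Sox10, a transcription factor of the oligodendrocyte lineage, had 0.20 (adjusted p = 0.193). These 2 of the 17 did not overlap between genotypes, as 3.14% of all genes did not. Opalin, a myelin membrane protein gene, had 0.44 (adjusted p = 0.303), and Fa2h, which hydroxylates the fatty acids of myelin sphingolipids, had 0.24 (adjusted p = 0.329). In whole cortex, a difference in the number of oligodendrocytes and a difference in RNA per cell cannot be told apart.

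The myelin mean was 9.59, 9.59, 9.81, 9.67 and 9.49 in Crtc1-/- mice, against 9.33, 9.24, 9.51, 9.53 and 9.55 in WT mice. Crtc1-/- replicate 3 was the highest array for myelin and among the 2 lowest for sterol synthesis, and WT replicate 2 was the lowest for myelin and the highest for sterol synthesis. These are the 2 mice without which no member had an unadjusted p under 0.05. Other mice departed from this arrangement. Crtc1-/- replicate 5 had the lowest sterol mean of all arrays and a myelin mean among the WT values. Crtc1-/- replicate 1 had the highest sterol mean of its genotype, 8.81, with a myelin mean of 9.59 that lay above every WT mouse, and WT replicate 4 had a sterol mean of 8.82 with a myelin mean of 9.53, near the highest of its genotype. The fatty acid mean was 10.21, 10.16, 10.17, 10.17 and 10.14 in Crtc1-/- mice, against 10.22, 10.19, 10.19, 10.09 and 10.15 in WT mice. Averaged over mice it was 10.17 ± 0.03 in Crtc1-/- mice, against 10.17 ± 0.05 in WT mice (SD, n = 5 each). Its order against myelin was not tested.

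**Figure D4:**
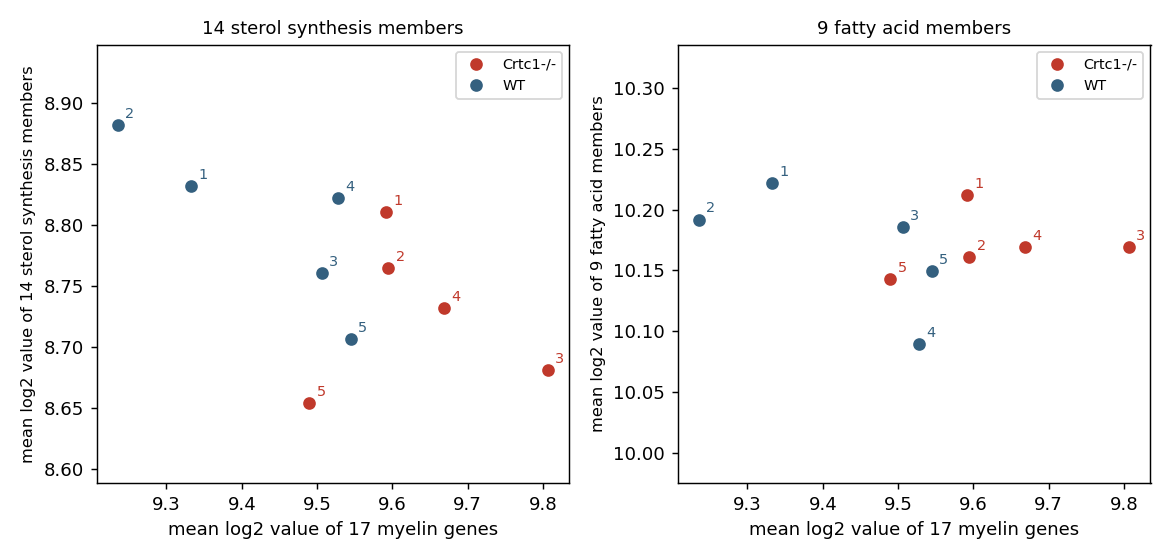
Mean log2 value of the 14 sterol synthesis members (left) and the 9 fatty acid members (right) against the mean of 17 myelin genes, 1 point per mouse with its replicate number, Crtc1-/- in red and WT in blue. On the left WT replicate 2 is at the top left (9.24 for myelin, 8.88 for sterol synthesis) and Crtc1-/- replicate 3 at the bottom right (9.81 and 8.68).

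With the myelin mean of each array as a covariate in limma, the sterol synthesis median was −0.02 with 9 of 14 below 0. The fatty acid median was 0.04 with 3 of 9 below 0, against 5 of 9 without the covariate. The median of all members was 0.00 with 15 of 30 below 0. In that fit 0 members had an unadjusted p under 0.05 in either direction. Of all genes 6.12% had such a p, against 9.86% without the covariate. Fdps was at −0.12 (standard error 0.08), Mvk at −0.11 and Fdft1 at −0.10, while Lss was at −0.01 and Nsdhl at −0.05. Mvd, Idi1, Hsd17b7 and Dhcr7 turned to values above 0, between 0.01 and 0.04. The standard errors of the members were 1.36 times as large by the median. The covariate itself differed by genotype, at 9.63 in Crtc1-/- mice, against 9.43 in WT mice. A genotype difference and a myelin difference therefore cannot be fully told apart in this fit. No member was called, where 29 of the 18193 genes were called lower and 17 higher.

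**Figure D5:**
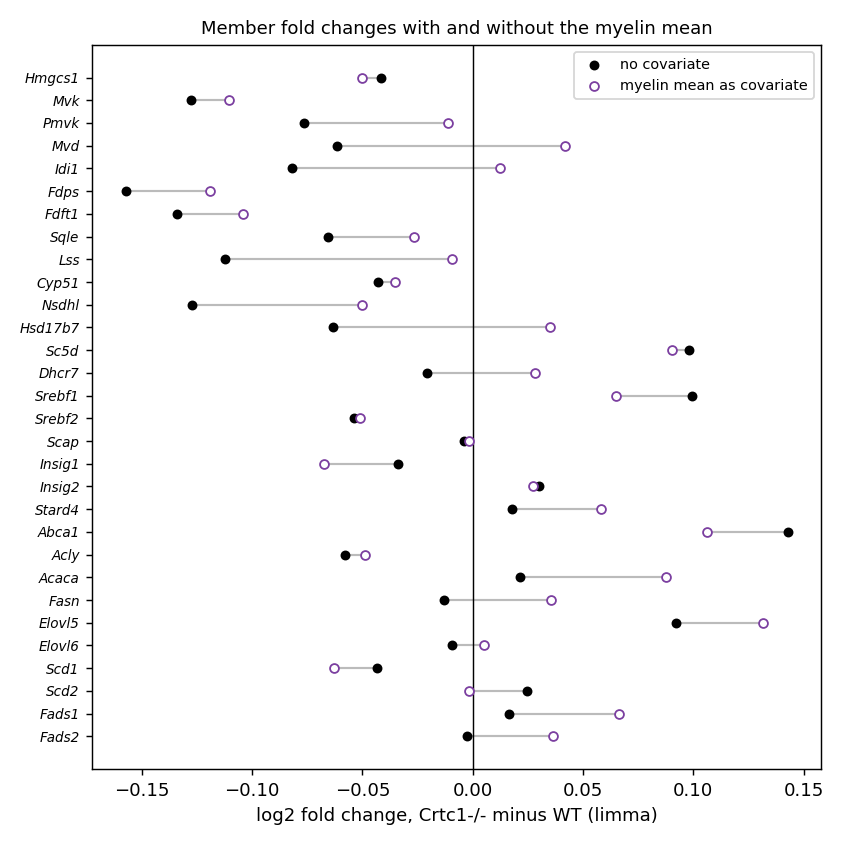
Log2 fold change (Crtc1-/- minus WT) of each member without a covariate (filled) and with the myelin mean of each array as a covariate (open). Lss goes from −0.11 without it to −0.01 with it, and Fdps stays furthest below 0, at −0.12. The covariate itself differs between genotypes.

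Other genes of the 2 pathways, from lists of the same kind, were mostly in the same range. Of 29 other sterol pathway genes 22 were measured and 0 passed the limma test. At an unadjusted p under 0.05, 2 were lower and 1 was higher (13.6% in either direction, against 9.86% of all genes). Their median was 0.00, and 9 of 22 lay below 0 (40.9%, against 51.6% of all genes). The sterol reductase gene Tm7sf2 had means of 7.51 ± 0.05 in Crtc1-/- mice, against 7.65 ± 0.06 in WT mice (SD, n = 5 each), with a log2 fold change of −0.14 (adjusted p = 0.263). Cyp46a1, the neuronal enzyme that turns brain cholesterol into an oxysterol for export, had −0.25 (adjusted p = 0.416, standard error 0.10). Nr1h3, which encodes a liver X receptor, had 0.16 (adjusted p = 0.436). Its probe set was dim, with means of 4.71 in Crtc1-/- mice and 4.55 in WT mice. Npc2, a lysosomal sterol carrier, had 0.07 (adjusted p = 0.702).

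Of 30 other fatty acid genes 29 were measured, and 1 passed the test, as lower, where 0.456% of all genes did. Their median was 0.03, and 9 of 29 lay below 0 (31.0%, against 51.6% of all genes). Dgat2, which adds the last acyl chain in triglyceride synthesis, fell. It read 8.65, 8.67, 8.73, 8.69 and 8.57 in Crtc1-/- mice, against 9.05, 8.98, 8.99, 9.13 and 8.93 in WT mice. Every Crtc1-/- mouse lay below every WT mouse. The means were 8.66 ± 0.06 in Crtc1-/- mice, against 9.02 ± 0.08 in WT mice (SD, n = 5 each), a log2 fold change of −0.36 (adjusted p = 0.00447, standard error 0.05). The next genes by p did not pass, namely Pparg, a lipid-activated transcription factor, at 0.13 (adjusted p = 0.457), Cpt1c, a brain carnitine palmitoyltransferase, at −0.10 (adjusted p = 0.503), and Mid1ip1, which activates acetyl-CoA carboxylase, at 0.10 (adjusted p = 0.532).

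Markers of the cells that could supply these transcripts were set beside the members. Of 10 astrocyte markers 9 lay above 0 and 0 passed the limma test (1 at an unadjusted p under 0.05), with list means of 10.10 to 10.22 in Crtc1-/- mice and 9.996 to 10.13 in WT mice. Of 9 neuron markers 7 lay below 0 and 0 passed (1 at an unadjusted p under 0.05), with list means of 11.56 to 11.62 in Crtc1-/- mice and 11.60 to 11.66 in WT mice. No marker of microglia, endothelium, oligodendrocyte precursors, choroid plexus or blood passed, nor had any an unadjusted p under 0.05. All 6 endothelial markers lay above 0 (median 0.08), as did 5 of 6 microglia and 4 of 5 oligodendrocyte precursor markers. Of 5 choroid plexus and blood markers 2 lay above 0. Of 10 hippocampal markers 6 lay below 0 and 4 above, and 4 were lower at an unadjusted p under 0.05 (40%; 5.53% of all genes). Of these Fibcd1 (−0.41, adjusted p = 0.00922) and Fam163b (−0.28, adjusted p = 0.0188) passed the limma test. Spink8 and Tdo2, lower at the unadjusted p only, were dim. Their means were 4.40 and 3.37 in Crtc1-/- mice, against 4.63 and 3.61 in WT mice. The list means were 5.08 to 5.27 in Crtc1-/- mice and 5.27 to 5.43 in WT mice. The part of these markers in the lipid gene values was not tested.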

How the data were processed

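RNA from the cortex of 5 Crtc1-/- and 5 WT mice was measured on 10 arrays. The authors prepared cRNA from 300 ng of total RNA, excluded arrays of poor quality and deposited normalized log2 values, 1 per probe set and array. The method of background correction, normalization and summarization is not given in the sources used here. Deposited values lay between 2.14 and 13.9 after 64 control probe sets were left out, and the medians of the arrays lay within 0.03 of each other. Precision is limited by the number of arrays.

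For each of 18193 genes the brightest probe set naming that gene alone was used, with symbols updated to GRCm38.p6, and 932 probe sets naming several genes were left out. Crtc1-/- was compared with WT by lmFit and eBayes (limma 3.58.1, R 4.3.3) with Benjamini-Hochberg adjustment over all genes, as the study's methods use moderated statistics. The fit was tested on simulated data first. The members and the gene lists were chosen with earlier results of these data known. Named were Crtc1, all members, with array values for the 6 of largest change, and up to 4 genes of smallest p in each other list. Cell markers that passed the threshold are given by name, as are Spink8 and Tdo2, and the rest by counts. Array values of Sc5d, Acly and 1 dimmer Scd2 probe set were added after they were seen. Alternatives covered normalization, choice of probe sets, variance prior, weights for arrays, a block for the replicate number, the myelin mean as a covariate and leaving out each array. The study's behavior, staining, western blot and quantitative PCR data were not analysed here.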

Additional observations from a re-analysis of the deposited data

Results flagged for a closer look

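Of 60 groups of 5 arrays, 1 for each measured member and genotype, 1 held an array far from the others, where chance gives about 1 in 20. Abca1 read 9.08 in Crtc1-/- replicate 1, against 8.86 in the nearest and 8.80 in the farthest mouse of that genotype. The gap was 0.784 of the genotype's whole range. Of 4 groups of the 2 member probe sets with the widest spread, 1 held such an array. It was a dimmer Scd2 probe set that read 10.5 in WT replicate 3, against 6.48 in the nearest WT mouse. These 2 probe sets were taken because their standard error was over 0.3, which an outlying array itself raises. The rate of 1 in 20 therefore does not apply to them.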

How the results depend on the processing

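No member was called in either direction under any alternative run, and neither was a myelin gene. Dgat2 stayed called and lower under each. The median of the sterol synthesis members stayed below 0 in all, between −0.10 and −0.05 when single arrays were left out and at −0.02 with the myelin covariate. The median of all members was between −0.05 and −0.01 without single arrays and 0.00 with the covariate. The number of lower members at an unadjusted p under 0.05 was 0 to 5 without single arrays, 1 with the mean of all probe sets and 0 with the covariate. The mean of all probe sets counts dim ones equally. With the covariate, which itself differed by genotype, 6.12% of all genes had such a p in either direction, against 9.86% without it. Replicate numbers did not pair the arrays (correlations of same-numbered arrays from −0.26 to 0.06, and 0 of 5 WT arrays closest to the Crtc1-/- array of their number). With the replicate block, 0 members were called, 4 had an unadjusted p under 0.05 and the members' median was −0.04. Members near 0 changed sign, and the cause was not tested. With the mean of all probe sets, Acaca was at −0.0076, Cyp51 at 0.0037 and Hsd17b7 at 0.028. Scd2 was at −0.23 there. That mean includes the dimmer Scd2 probe set at −0.73 (standard error 0.72), which read 10.5 in WT replicate 3. Without probe sets that may bind related transcripts, Hsd17b7 was at 0.13. Fads2 was at 0.0078 after quantile normalization and at 0.0025 with array weights. With the myelin covariate, Dhcr7 was at 0.028, Hsd17b7 at 0.035, Idi1 at 0.013, Mvd at 0.042, Elovl6 at 0.0051, Fasn at 0.036, Fads2 at 0.037 and Scd2 at −0.0017. Leaving out single arrays gave ranges of −0.0017 to 0.042 for Acaca, −0.077 to 0.0055 for Cyp51, −0.039 to 0.0029 for Dhcr7, −0.031 to 0.017 for Elovl6, −0.026 to 0.040 for Fads1, −0.038 to 0.021 for Fads2, −0.037 to 0.0074 for Fasn, −0.067 to 0.0039 for Insig1, −0.013 to 0.065 for Insig2, −0.014 to 0.0046 for Scap and −0.0093 to 0.053 for Stard4.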
